A study of Homo sapiens with 6 samples.

Results

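The genes of polyamine metabolism were examined in T24, an established human bladder cancer cell line, with and without extra RNF112. Among the 23152 genes in the count table, 10 of these genes (the members) were followed, and all 10 passed the filter on low counts. They were ODC1, AMD1, SRM and SMS for synthesis, SAT1, SMOX and PAOX for breakdown, and OAZ1, OAZ2 and AZIN1 for the control of ODC1. The set was selected on the difference in ODC1 counts between these same samples. The other 9 genes were chosen by their place in the pathway, with earlier results of these data known. The values of ODC1 are therefore given as a description without a test, while the 9 other genes carry the test made across all genes.

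The study asked what RNF112, an E3 ubiquitin ligase, does in bladder cancer cells and whether it acts on c-Myc protein. RNA was sequenced from 3 T24 samples with empty vector (vector) and 3 T24 samples overexpressing RNF112 (oeRNF112), all grown in the same medium. The study's methods describe transfection of a Flag-RNF112 plasmid with a lipid reagent and, for the animal experiments, infection of T24 cells with lentivirus. The protocol in the sample labels speaks of siRNA. The sample titles give overexpression, and the RNF112 counts below were far higher in oeRNF112. How RNF112 was delivered to these samples is not settled by these sources. Nothing in the labels says that the replicates of a group came from separate cultures, so the p-values measure only the spread between these samples, which may be technical.

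Polyamines are small positively charged molecules that bind RNA and DNA and are needed for cell growth. ODC1 makes putrescine from ornithine, and SRM and SMS then add aminopropyl groups, supplied through AMD1, to give spermidine and spermine. SAT1 acetylates spermidine and spermine so that they can be exported or oxidized. ODC1 is a classical transcriptional target of c-Myc, and its protein is removed through antizyme, which in turn is held back by antizyme inhibitor.

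The libraries held between 40029547 and 41259569 counted reads. RNF112 had 27, 19 and 24 counts in vector and 29753, 36963 and 31712 counts in oeRNF112, which may include reads from the introduced construct. The 100 most abundant genes took 20.6% to 22.9% of the counts in vector and 18.0% to 19.6% in oeRNF112, and the TMM factors (edgeR's correction of the library totals) were 0.957 to 0.988 and 1.01 to 1.05. Of the markers, 4 keratins (KRT7, KRT8, KRT18 and KRT19) were abundant in all samples, whereas CDH1 had at most 1 count and UPK1A, UPK2 and UPK3A, uroplakin genes of the mature urothelium, had at most 20 counts in any library. The urothelial transcription factor genes PPARG, at 2056 to 2485 counts, and GATA3, at 117 to 173 counts, were detected in all 6 samples. The summed RPKM of 6 epithelial markers was 1795 to 2231 in vector and 1460 to 1699 in oeRNF112, that of 5 leukocyte markers 4.39 to 5.50 and 3.04 to 4.14, and that of 5 fibroblast markers 15.6 to 20.01 and 12.0 to 14.9. All 4 tested leukocyte markers fell on the log2 scale, LAPTM5 by 0.88 (adjusted p = 0.0308 from edgeR), PTPRC by 0.74, CD79A by 0.48 and CD14 by 0.31. Of these only LAPTM5 passed an adjusted p under 0.05, with a mean of 2.85 RPKM in vector and 1.65 in oeRNF112. CD14 and CD79A overlapped between the groups, and PTPRC and CD79A had at most 54 and 51 counts in any library. The members of the epithelial and fibroblast lists did not all move together. On the log2 scale KRT7 fell by 0.48 (adjusted p = 0.0226 from edgeR) and KRT18 fell by 0.51 (adjusted p = 0.013), whereas EPCAM rose by 0.84 (adjusted p = 0.0208). The fibroblast sum was mostly ACTA2, which fell by 0.55 (adjusted p = 0.0233), while COL1A1 had 1.07 to 1.504 RPKM in vector and 1.66 to 1.76 in oeRNF112 (log2 fold change 0.28, adjusted p = 0.21). The endothelial markers summed to at most 0.0952. The part of these shifts in the results below was not tested.

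Promoter sequences of 3 members are shown because the study concerns c-Myc, whose canonical E-box is CACGTG. They come from RefSeq windows on GRCh38.p14 that run from 250 bases before a gene's start site to 50 bases into it, and 7 of the 10 members matched 10 such windows. The submitters' notes name GRCh38 as the build of the counts. The first stretch lies at chr2:10447987-10448061 on the minus strand, within an intron of the longer ODC1 transcript by GENCODE 29, around the more downstream of the ODC1 start sites in RefSeq. The next lies at chr1:11060192-11060237 on the minus strand, upstream of SRM. The last covers the 100 bases upstream of SAT1, at chrX:23783073-23783172 on the plus strand, and holds no such motif. Capitals mark CACGTG, and each stretch is written 5′ to 3′ on the strand of its gene.
ODC1: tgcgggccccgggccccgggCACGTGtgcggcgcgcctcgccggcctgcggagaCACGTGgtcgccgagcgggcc
SRM: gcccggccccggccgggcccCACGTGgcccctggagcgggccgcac
SAT1: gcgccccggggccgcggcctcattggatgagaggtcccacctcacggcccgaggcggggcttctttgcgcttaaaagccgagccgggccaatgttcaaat

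CACGTG reads the same on both strands and is one form of the looser pattern CANNTG, which the study used in its search of another promoter. One of the ODC1 motifs began 29 bases before that downstream start site and the other at base 6 counted from it, while the SRM motif began 199 bases before the SRM start site. The window of the upstream ODC1 start site held neither pattern. AMD1, SMS, SAT1, OAZ1 and OAZ2 had no CACGTG in their windows. Among all 35116 windows, 7.26% held CACGTG, 0.664% held it 2 or more times and 68.7% held CANNTG. These matches are letters in a window and were not tested for binding.

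ODC1, the enzyme that starts polyamine synthesis (chr2:10439968-10448327), was higher in each of the oeRNF112 samples than in any vector sample. Its level was 54.2, 46.4 and 55.5 RPKM (reads per kilobase of gene, scaled to the library total) in vector replicates 1, 2 and 3, and 91.2, 106.1 and 87.1 RPKM in oeRNF112 replicates 1, 2 and 3. The groups did not overlap, vector replicate 2 being the lowest and oeRNF112 replicate 2 the highest. The counts behind these values were 5660 to 6751 in vector and 10604 to 12969 in oeRNF112. After TMM normalization the log2 fold change was 0.77 (standard error 0.116), or 1.71-fold, and 665 genes that passed the test as higher had a larger one. Over the 15 alternative fits the fold lay between 1.603 and 1.823, a description of the same samples on which the set was selected. In bulk RNA a change in the share of cells of one kind and a change in RNA per cell cannot be told apart.

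SAT1, which acetylates spermidine and spermine and limits the rate of their breakdown (chrX:23783173-23786210), rose in oeRNF112. Its level was 38.8, 41.1 and 49.4 RPKM in vector and 85.1, 86.4 and 79.6 RPKM in oeRNF112. The highest vector sample, replicate 3, lay well below the lowest oeRNF112 sample, also replicate 3. The log2 fold change was 0.86 (standard error 0.109, 95% interval 0.62 to 1.11), or 1.82-fold, with an adjusted p of 0.000972 from edgeR's quasi-likelihood test. SAT1 was the only one of the 9 genes tested to pass an adjusted p under 0.05, and it did so in each of the 15 alternative fits, with adjusted p between 1.26e-10 and 0.0103. Over all 14467 genes tested, 18.1% passed this threshold, 9.97% higher and 8.14% lower (1442 and 1178 genes, or 2020 and 659 with library totals in place of TMM factors), so that 1 of 9 is near the background and says nothing particular of the set. With DESeq2 and with limma SAT1 was likewise the single call. At an unadjusted p under 0.05 edgeR gave 1 higher and 0 lower of the 9, against 2472 higher and 2311 lower of its 14467 genes. Limma on log2(RPKM + 1) gave 2 higher and 0 lower of the 9, against 3827 higher and 1606 lower of its 23152 genes. The median log2 fold change of the 9 was 0.01, against 0.0027 for all genes.

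**Figure D1:**
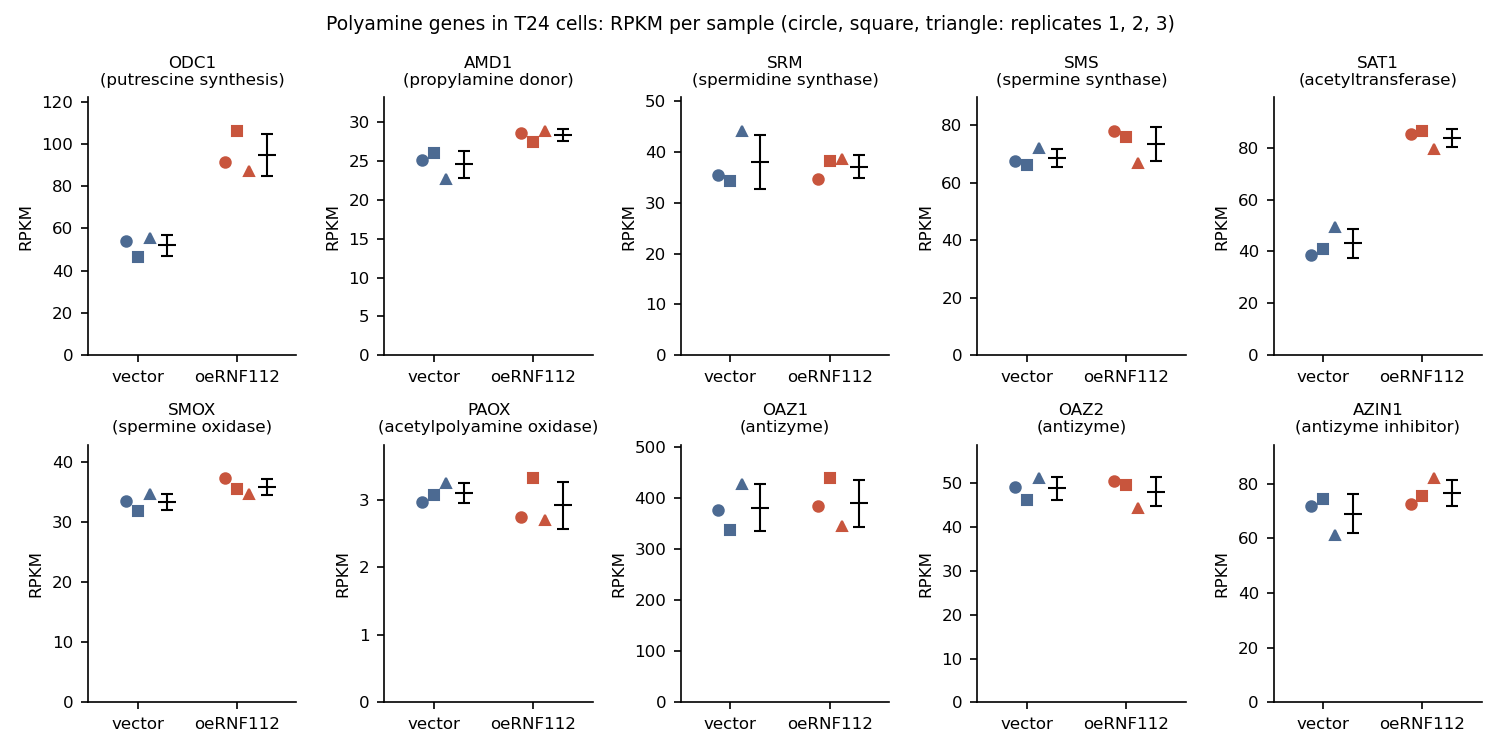
RPKM of each polyamine gene in each sample, with vector in blue and oeRNF112 in red, symbols for replicates 1 to 3, and black bars for the mean and SD of 3 samples. ODC1 and SAT1 lie higher in all oeRNF112 samples, at 87.1 to 106.1 and 79.6 to 86.4 RPKM, whereas the other panels show close or overlapping groups.

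The enzymes downstream of ODC1 in synthesis did not pass the test. AMD1, which decarboxylates S-adenosylmethionine to supply the aminopropyl groups, had 25.2, 26.0 and 22.6 RPKM in vector and 28.6, 27.4 and 28.9 RPKM in oeRNF112. Its groups did not overlap, but the difference was small, with a log2 fold change of 0.11 (95% interval -0.07 to 0.29, adjusted p = 0.385 from edgeR's test). In normalized CPM, AMD1 and SAT1 were the 2 of these 9 genes without overlap between the groups, both higher, against 36.8% of all genes tested (18.8% higher and 17.9% lower).

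SRM, which makes spermidine, had 35.5, 34.4 and 44.2 RPKM in vector and 34.6, 38.2 and 38.6 RPKM in oeRNF112. Vector replicate 3 was the highest of the 6 and the other samples overlapped. The log2 fold change was -0.13 (95% interval -0.39 to 0.13, adjusted p = 0.474). SMS, which makes spermine, had 67.6, 66.2 and 72.0 RPKM in vector and 77.9, 75.9 and 66.8 RPKM in oeRNF112. Here too the groups overlapped, with a log2 fold change of 0.01 and a 95% interval from -0.21 to 0.22 (adjusted p = 0.971).

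The oxidases that follow or bypass SAT1 did not pass the test. SMOX, which oxidizes spermine directly, had 33.5, 31.9 and 34.6 RPKM in vector and 37.3, 35.6 and 34.6 RPKM in oeRNF112. The groups met at the lowest oeRNF112 sample, replicate 3, and overlapped after normalization, and the log2 fold change was 0.01 (95% interval -0.18 to 0.20, adjusted p = 0.95 from edgeR's test). PAOX, which oxidizes the acetylated products of SAT1, was the least abundant member. It had 2.97, 3.06 and 3.25 RPKM in vector and 2.74, 3.32 and 2.69 RPKM in oeRNF112, from 199 to 246 counts. Its log2 fold change was -0.18 (95% interval -0.50 to 0.15, adjusted p = 0.427), the widest interval among the 9 genes.

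The antizymes bind ODC1 and carry it to the proteasome, and their mRNA needs a ribosomal frameshift that polyamines promote, so the mRNA level does not give the protein. OAZ1 was the most abundant member, with 377, 337 and 428 RPKM in vector and 384, 439 and 346 RPKM in oeRNF112. Both groups ranged widely and overlapped, and the log2 fold change was -0.06 (95% interval -0.34 to 0.22, adjusted p = 0.769 from edgeR's test). Its sign was positive with library totals in place of TMM factors, at 0.03. OAZ2 had 49.1, 46.1 and 51.1 RPKM in vector and 50.5, 49.5 and 44.3 RPKM in oeRNF112, with a log2 fold change of -0.11 (95% interval -0.33 to 0.10, adjusted p = 0.43). OAZ1 made up 88.0% to 89.9% of the summed antizyme RPKM in the 6 samples.

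AZIN1, the antizyme inhibitor, resembles ODC1 but lacks its activity and frees ODC1 by binding antizyme. It had 71.8, 74.4 and 61.1 RPKM in vector and 72.6, 75.6 and 82.0 RPKM in oeRNF112. Vector replicate 3 held both the lowest AZIN1 and the second-highest OAZ1 level of the 6 samples, and oeRNF112 replicate 3 the highest AZIN1 level. The log2 fold change of AZIN1 was 0.06 (95% interval -0.15 to 0.27, adjusted p = 0.701 from edgeR's test).

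The balance of antizyme and its inhibitor was compared within each sample, which does not depend on the library scaling. The ratio of OAZ1 plus OAZ2 to AZIN1, in RPKM, was 5.94, 5.15 and 7.85 in vector and 5.98, 6.45 and 4.75 in oeRNF112. These values overlapped, and on the log2 scale the means were 2.64 ± 0.309 and 2.51 ± 0.230 (SD, n = 3 each, exact two-sided permutation test, p = 0.7, where 0.1 is the smallest p possible). The difference of -0.13 turned to 0.04 without vector replicate 3. ODC1 relative to the summed antizymes was 0.127, 0.121 and 0.116 in vector and 0.210, 0.217 and 0.223 in oeRNF112, a description since ODC1 was chosen for its difference. SAT1 relative to ODC1 was 0.716, 0.886 and 0.890 in vector and 0.933, 0.814 and 0.913 in oeRNF112, so that these ratios overlapped between the groups.

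**Figure D2:**
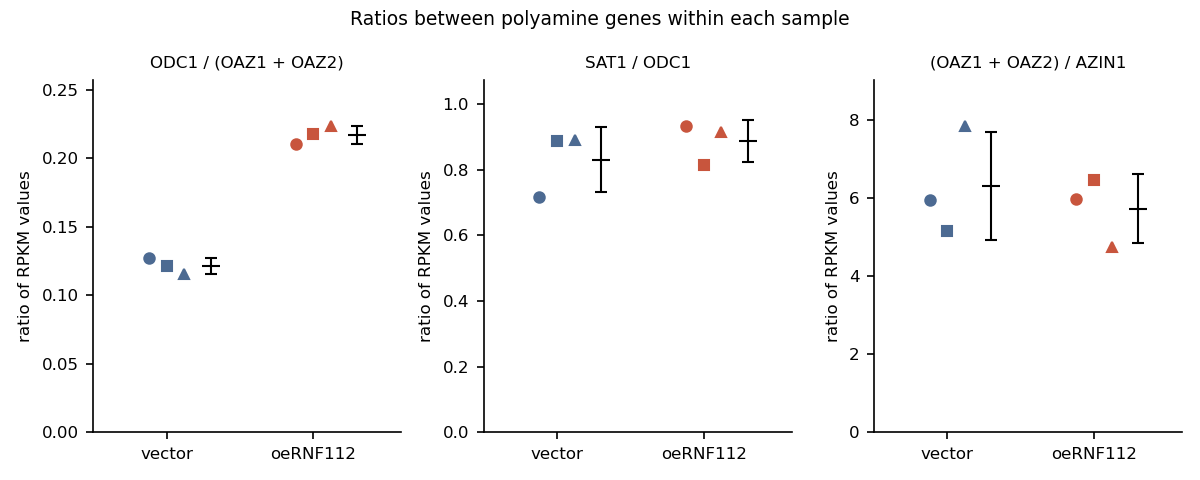
Ratios of RPKM values within each sample, in vector (blue) and oeRNF112 (red), with symbols for replicates 1 to 3 and black bars for the mean and SD of 3 samples. The ODC1 to antizyme ratio spans 0.116 to 0.127 for vector and 0.210 to 0.223 for oeRNF112, while the other ratios overlap.

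RPKM is scaled to 1 fixed length per gene, such as 3.015 kb for ODC1 and 2.493 kb for SAT1. The order of genes in this paragraph and the next depends on these lengths. They were not checked against the transcripts expressed here. On this scale OAZ1 led in vector with 380.8 ± 45.6 RPKM (SD, n = 3, as for all levels in this paragraph). AZIN1 at 69.1 ± 7.07 and SMS at 68.6 ± 3.03 followed and overlapped. ODC1 came next at 52.0 ± 4.94, overlapping OAZ2 at 48.8 ± 2.52, which in turn overlapped SAT1 at 43.1 ± 5.61. SRM at 38.0 ± 5.34 overlapped both SAT1 and SMOX, the latter at 33.3 ± 1.38, and AMD1 at 24.6 ± 1.75 and PAOX at 3.09 ± 0.145 closed the order without overlap.

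In oeRNF112 the order of the most abundant genes differed. OAZ1 led again at 389.3 ± 46.7 RPKM (SD, n = 3, as for the values that follow), and ODC1 took the second place at 94.8 ± 9.99 RPKM. SAT1 stood at 83.7 ± 3.63 RPKM, with its highest sample just under the lowest ODC1 sample, followed by AZIN1 at 76.7 ± 4.78, which overlapped SAT1, and SMS at 73.5 ± 5.95, which overlapped AZIN1. OAZ2 stayed at 48.1 ± 3.33, SRM at 37.2 ± 2.20 and SMOX, which overlapped SRM, at 35.8 ± 1.37, AMD1 at 28.3 ± 0.779 and PAOX at 2.92 ± 0.346 RPKM. Of all genes tested, 99.1% had a lower mean RPKM than OAZ1 and 38.4% a lower one than PAOX, and for the 8 other members this share was 83.8% to 94.2%.

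Around these enzymes lie the genes that supply their substrates, recycle their by-product, transport polyamines or use spermidine. Of 32 such genes, 26 passed the filter on low counts, and 4 were higher and 4 lower past the same threshold, against 18.1% of all genes. With library totals the split was 6 higher and 1 lower. The median log2 fold change of the 26 was 0.04. The call of 5 of these 8 genes was lost when single libraries were left out, as given with each gene below.

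**Figure D3:**
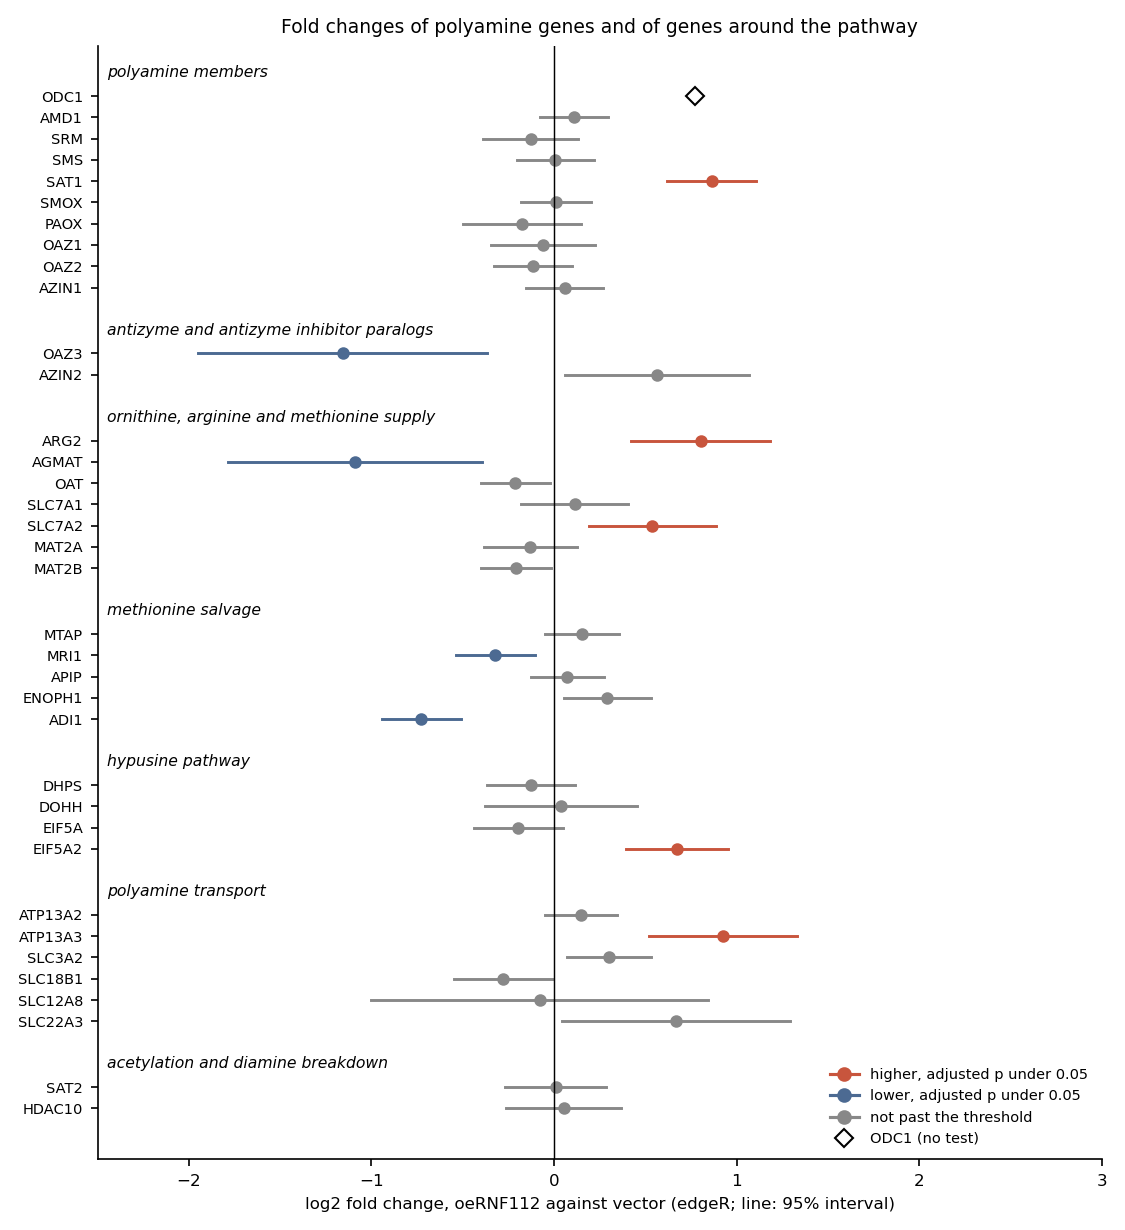
Log2 fold change of oeRNF112 against vector for the polyamine genes and the tested genes around the pathway, grouped by role, with the approximate 95% interval derived from edgeR's fit as a line. SAT1, ARG2, SLC7A2, EIF5A2 and ATP13A3 are in red as higher, OAZ3, AGMAT, MRI1 and ADI1 in blue as lower, and ODC1 at 0.77 is an open diamond because it was not tested.

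Among 7 tested genes of ornithine, arginine and methionine supply, 2 were higher and 1 lower, against 9.97% higher and 8.14% lower of all genes tested. ARG2, the mitochondrial arginase that makes ornithine, the substrate of ODC1, had 132, 124 and 162 counts in vector and 248, 292 and 232 counts in oeRNF112. All 3 oeRNF112 samples were above all vector samples, and ARG2 rose 1.75-fold (log2 fold change 0.80, standard error 0.171, with an adjusted p of 0.0113 by edgeR), a call that missed the threshold without vector replicate 1 (adjusted p = 0.0543). SLC7A2, which imports arginine and other cationic amino acids, had 346, 441 and 334 counts in vector and 543, 480 and 700 counts in oeRNF112. It rose by 0.54 on the log2 scale (adjusted p = 0.0402), but the call was lost without vector replicate 1 or 3 or oeRNF112 replicate 1 or 3 (adjusted p of 0.0899 to 0.149). The related importer SLC7A1 had a log2 fold change of 0.11 (adjusted p = 0.587).

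AGMAT, which is named for making putrescine from agmatine, was scarce, with 29, 35 and 37 counts in vector and 20, 16 and 14 counts in oeRNF112. It fell by 1.09 on the log2 scale (adjusted p = 0.0381 from edgeR's test), and leaving out any 1 of the 6 libraries removed the call (adjusted p of 0.0663 to 0.145). MAT2A and MAT2B, which encode the enzyme that makes S-adenosylmethionine and its regulatory partner, did not pass, with log2 fold changes of -0.13 and -0.21 (adjusted p of 0.457 and 0.119).

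Methionine salvage recycles methylthioadenosine, the by-product of SRM and SMS. MTAP, its first enzyme, had a log2 fold change of 0.15 (95% interval -0.05 to 0.35, adjusted p = 0.274 from edgeR's test). ADI1, the dioxygenase near its end, had 2841, 2623 and 2961 counts in vector and 1887, 1824 and 1675 counts in oeRNF112. The groups were far apart, and ADI1 fell by 0.73 on the log2 scale, to 0.605 of the vector level (standard error 0.098, adjusted p = 0.00135), a call that held in all 15 alternative fits. MRI1, the isomerase after MTAP, had 2003, 2066 and 2167 counts in vector and 1929, 1646 and 1706 counts in oeRNF112. Its fall was smaller, to 0.801 of the vector level (adjusted p = 0.0456), and when single libraries were dropped it passed only without vector replicate 2 (adjusted p of 0.0629 to 0.152 for the other 5). APIP and ENOPH1 did not pass, at log2 fold changes of 0.07 and 0.29 (adjusted p of 0.603 and 0.0852).

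Spermidine is also the donor of hypusine, a modified amino acid found in the translation factor eIF5A. EIF5A, the main gene of this factor, had 26511, 23624 and 28656 counts in vector and 23413, 26403 and 22910 counts in oeRNF112, which overlapped (log2 fold change -0.20, adjusted p = 0.24 from edgeR's test). EIF5A2, its paralog, had 1336, 1287 and 1170 counts in vector and 1723, 2265 and 2417 counts in oeRNF112. EIF5A2 rose 1.597-fold (log2 fold change 0.68, standard error 0.125, adjusted p = 0.00627) and kept its call in all 15 alternative fits. DHPS and DOHH, the enzymes that make hypusine, had log2 fold changes of -0.13 and 0.04 (adjusted p of 0.442 and 0.913).

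Among 6 tested transport genes, 1 was higher, against 9.97% of all genes tested. ATP13A3, an ATPase linked to polyamine uptake, had 4392, 5442 and 3227 counts in vector and 7715, 7525 and 10967 counts in oeRNF112. Both groups were spread, with replicate 3 lowest in vector and highest in oeRNF112, but they did not overlap, and ATP13A3 rose 1.90-fold (log2 fold change 0.93, standard error 0.183, with an adjusted p of 0.00824 by edgeR). It passed in 14 of 15 alternative fits, and limma on log2(RPKM + 1) gave an adjusted p of 0.0575. Its relative ATP13A2, a lysosomal polyamine exporter, had a log2 fold change of 0.15 (adjusted p = 0.272). SLC3A2, the heavy chain of several amino acid transporters, was higher in all oeRNF112 samples at 12786 to 14009 counts against 9173 to 11197, with a log2 fold change of 0.30 that did not pass (adjusted p = 0.0698).

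**Figure D4:**
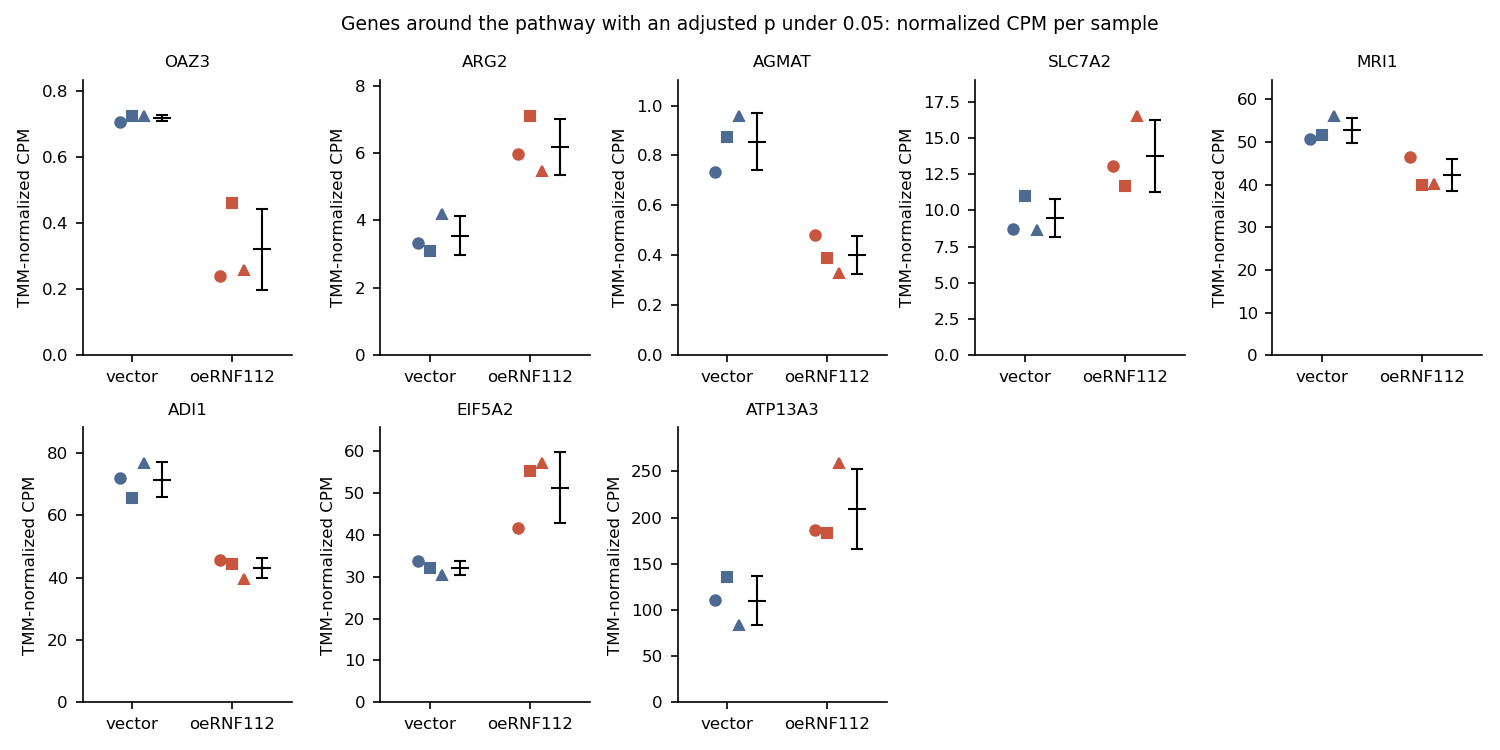
TMM-normalized counts scaled to library size (CPM) in each sample for the 8 genes around the pathway that passed the test, vector in blue and oeRNF112 in red, symbols for replicates 1 to 3, black bars for the mean and SD. ARG2, SLC7A2, EIF5A2 and ATP13A3 lie higher and OAZ3, AGMAT, MRI1 and ADI1 lower in oeRNF112, and OAZ3 and AGMAT stay below 1 CPM.

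OAZ3, the antizyme known from testis, had 28, 29 and 28 counts in vector and 10, 19 and 11 counts in oeRNF112. It fell by 1.16 on the log2 scale with an adjusted p just under the threshold (0.0479 from edgeR's test), which was lost in each fit that left out one library except that without oeRNF112 replicate 2 (0.0727 to 0.17 in those 5). AZIN2, a second antizyme inhibitor, had 86 to 147 counts in vector and 151 to 181 in oeRNF112 and did not pass (log2 fold change 0.56, adjusted p = 0.112). Neither of 2 tested genes of acetylation and diamine breakdown passed. SAT2, a paralog of SAT1, had 1330 to 1599 counts in vector and 1342 to 1702 in oeRNF112, with a log2 fold change of 0.01 (95% interval -0.27 to 0.29, adjusted p = 0.966).

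MYC, the gene of c-Myc, had 3237, 3222 and 3334 counts in vector and 3098, 3244 and 3262 counts in oeRNF112. These counts overlapped, as did the RPKM values, at 17.4 to 18.3 in vector and 17.1 to 17.9 in oeRNF112. In normalized CPM all oeRNF112 samples, at 74.7 to 78.9, were below the vector samples, at 80.5 to 86.4. The same held for 17.9% of all genes tested. With library totals in place of TMM factors the log2 fold change was -0.015. The mRNA did not pass the test (log2 fold change -0.11, 95% interval -0.29 to 0.07, adjusted p = 0.377 from edgeR's test), and the protein was not analysed here. The study reported no effect of RNF112 on MYC mRNA and less c-Myc protein when RNF112 was overexpressed. From gene set analysis of its RNA sequencing, the source of these samples, it also reported a negative correlation of RNF112 with MYC target gene sets. That result concerns whole sets and not single genes. ODC1 was higher here, and its relation to c-Myc in these samples was not tested. MAX, the partner with which c-Myc binds DNA, had a log2 fold change of 0.17 (adjusted p = 0.208).

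The genes whose values over the 6 samples came closest to those of ODC1 were FSTL3, IFITM3, TMEM156, PLAUR and STEAP1. Likeness was measured as the root mean square difference in log2 CPM after centring each gene on its own mean, among 9664 genes with a mean of at least 10 CPM. FSTL3 differed from ODC1 by 0.0325, IFITM3 by 0.0332, TMEM156 by 0.0344, PLAUR by 0.0415 and STEAP1 by 0.0426 on this scale, with Pearson's r between 0.995 and 0.999. All of them had their lowest value in vector replicate 2 and their highest in oeRNF112 replicate 2, as ODC1 did. Within the groups this was not particular to them. OAZ1, which did not pass the test, was lowest of the vector samples in replicate 2 (402.8 CPM). It was highest of the oeRNF112 samples in replicate 2 (510.6 CPM). AZIN1 differed, being highest of the vector samples in replicate 2 (344.2 CPM). By likeness to ODC1, SAT1 ranked 56, with a difference of 0.130 and r = 0.959. Since the 6 samples form 2 groups, these likeness values mostly restate the difference between the groups, and they are a description.

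**Figure D5:**
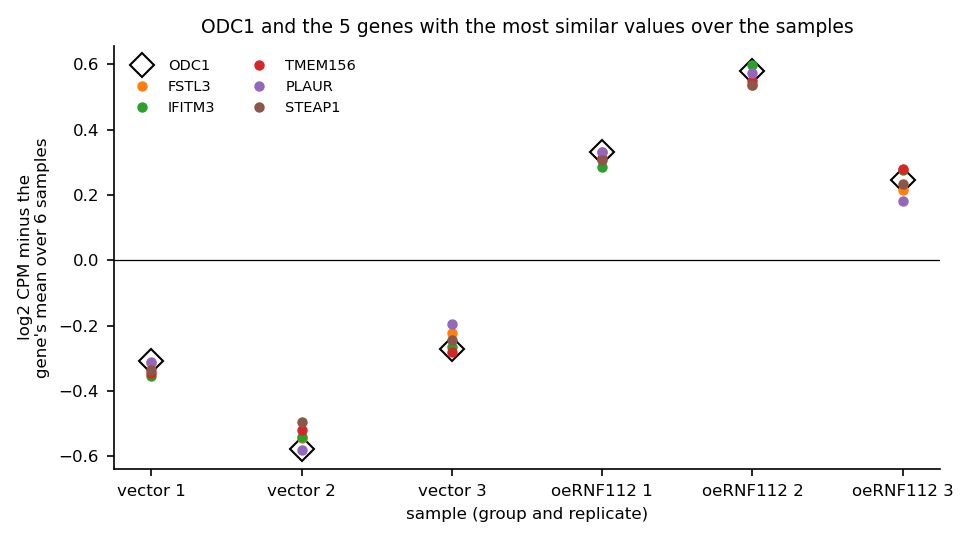
Log2 CPM minus each gene's mean over the 6 samples, for ODC1 (open diamonds) and the 5 genes closest to it (filled points), by sample. All 6 genes are lowest in vector replicate 2, at -0.58 for ODC1, and highest in oeRNF112 replicate 2, at 0.58 for ODC1.

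Some limits of the counting touch the members. RefSeq names 4 pseudogenes after AMD1, 3 after SRM and 1 each after SMS and OAZ1, and reads from such copies could have been split or lost. By GENCODE 29, exons of OAZ1, OAZ2, AZIN1 and PAOX overlap those of another gene, on the opposite strand for OAZ1, OAZ2 and AZIN1 and on the same strand for OAZ1 and PAOX. The library kit was stranded, but the strand setting of the counting is not given in the sources used here, so reads of overlapping genes may be included in these counts. JSRP1, on the strand opposite OAZ1, had at most 1 count in any library. The other overlapping genes were not among the genes counted under their GENCODE names.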

How the data were processed

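RNA-seq of T24 cells was used, with 3 vector and 3 oeRNF112 samples. Per the labels, the authors' processing notes name Trimmomatic 0.36, featureCounts of Subread 1.5.1 and GRCh38. The aligner, annotation and strand setting are not given in the sources used here. The authors deposited read counts per gene symbol, without normalization, and RPKM values, which for 23152 of 23152 genes could be rebuilt within 0.1% from the counts, the library totals and 1 length per gene.

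The 14467 genes kept by filterByExpr were tested with edgeR 4.0.16 in R 4.3.3 (TMM factors, quasi-likelihood test, Benjamini-Hochberg adjustment over all of them, threshold 0.05). Standard errors and 95% intervals are approximate, being derived from the log2 fold change and the F statistic of the same fit. Alternatives were DESeq2 1.42.0, its size factors in edgeR, library totals, other filters, limma 3.58.1 on log2(RPKM + 1) or log2(RPKM + 0.1), a replicate block and each library left out. Scripts were tested on simulated data.

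The members and the gene lists were chosen with earlier results of these data known. Named genes are RNF112, MYC, MAX, the members, listed genes with an adjusted p under 0.05 and up to 2 of the most abundant others of each list. By the same rule the 5 genes most like ODC1 were named. SLC7A1, MTAP and DOHH were added for their place in the pathway after their values had been seen. ARG1, SLC22A2 and UPK1B were not analysed here, and 1 further gene of the transport list is not reported here. No 2 replicates of a group agreed within counting noise (chi-square per gene of at least 17.8).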

Additional observations from a re-analysis of the deposited data

How the results depend on the processing

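SAT1 was the single call among the 9 tested members in all 15 alternatives. The fold of ODC1 under them is only a description, since the set was selected on the ODC1 difference between these same samples. Depth limits genes such as OAZ3, AGMAT and SLC12A8, which had fewer than 50 counts in every library. The cause of the changes below was not tested.

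The number of genes differing overall was 2620, 1442 higher and 1178 lower. With the replicate block it was 876, 618 higher and 258 lower. Library totals, under which the median log2 change over the tested genes was 0.0962, gave 2020 higher and 659 lower. Limma gave 1337 higher and 424 lower on log2(RPKM + 1), 1341 and 430 on log2(RPKM + 0.1), and 1439 and 603 at a mean RPKM of at least 1. Leaving out each library gave 1061 (without vector replicate 1) to 3387 (without vector replicate 2) genes, 702 to 1841 higher and 359 to 1546 lower.

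Of the genes around the pathway, 8 were called, 4 higher and 4 lower. The replicate block gave 3, of which 2 were higher and 1 lower, and no filter on low counts gave 5. Deviations from the group mean correlated negatively between same-numbered samples (-0.181, -0.539 and -0.454 for replicates 1, 2 and 3). Other pairings of samples were not examined. The lower genes were 2 with DESeq2 and 1 each with library totals, with no filter on low counts, with limma on log2(RPKM + 0.1) and with limma at a mean RPKM of at least 1. Leaving out each library gave 3 (without vector replicate 1) to 6 calls, 2 to 5 higher and 1 to 2 lower.

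The direction of some small values changed. OAZ1 was at 0.0321 with library totals and at 0.0318, 0.0319 and 0.0318 in the 3 limma fits. Leaving out each library gave -0.158 to 0.0397 for OAZ1, -0.211 to 0.0027 for SRM, -0.0352 to 0.0817 for SMS, -0.0374 to 0.0474 for SMOX, -0.0146 to 0.107 for AZIN1 and -0.265 to 0.0394 for the antizyme to inhibitor ratio. For 21 named genes, 313 values under the alternatives included 42 that lost the threshold, 3 that gained it (MAX with limma) and 13 that changed sign.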

Other observations

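ODC1-DT, a noncoding RNA whose gene starts 1400 bases beyond the start of ODC1, was noticed after its values had been seen. It had 2, 2 and 3 counts in vector and 17, 4 and 8 counts in oeRNF112, too few to pass the filter on low counts. All 3 oeRNF112 samples were above all vector samples, the closest being 4 counts against 3, and the difference was not tested. In normalized CPM 18.8% of all genes tested were likewise higher without overlap.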
